A study of Mus musculus with 12 samples.

Results

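Krt1, Krt10, Krt2 and Krt77 are keratin genes of the suprabasal epidermis. They were followed on 12 microarrays of keratinocytes, the cells that build the epidermis, grown in primary culture from mice of the FVB/N strain. Each of the 4 genes was taken as the 1 transcript cluster whose single gene symbol is its own, so that 4 of 35511 deposited transcript clusters, and 4 of the 15868 genes tested, are described here. The arrays fell into 4 groups of 3. AG1478-treated MT-HGF cells overexpressed hepatocyte growth factor (HGF), which binds and activates the receptor MET, from a transgene. They were mock transduced, were kept in 8% serum, and received the epidermal growth factor receptor (EGFR) kinase inhibitor AG1478 for 24 h. MT-HGF cells carried the same transgene without the inhibitor. RAS cells were wild-type cells transduced with v-rasHa, the activated Ras oncogene of Harvey sarcoma virus, and WT cells were wild-type controls.

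The MT-HGF, RAS and WT arrays share 1 treatment note, a RAS transduction of 3 days, and the sources used here do not say whether the MT-HGF and WT controls were mock transduced. The AG1478-treated arrays came with other wording for growth, extraction and labelling, and no vehicle-treated array handled with them was analysed here. The inhibitor and this difference in handling therefore cannot be told apart in any comparison that includes them. Below, the words after AG1478 stand for AG1478-treated against untreated MT-HGF cells and name no cause. In the MT-HGF line a metallothionein promoter, active in many tissues, drives the transgene. The labels do not give the age of the mice or the number of animals behind each group. The titles call the MT-HGF, RAS and WT arrays biological replicates and number the AG1478-treated arrays only as replicates. Whether a biological replicate was a separate animal, litter or culture is not stated. The p-values therefore refer to the variation among arrays within a group, which for the AG1478-treated arrays could be technical in part or whole. In total RNA of whole cultures, fewer cells of a type and less RNA per cell cannot be told apart.

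Keratins form the intermediate filaments of epithelial cells, and each filament is built from pairs of a type I and a type II chain. Basal keratinocytes make Krt5 with Krt14. When a keratinocyte leaves the basal layer and enters the spinous layer, it switches on the type II chain Krt1 and its type I partner Krt10, which are the standard markers of early differentiation. Krt2 is a type II keratin of the upper spinous and granular layers, and Krt77 is a type II keratin, also known as keratin 1b, whose gene is next to Krt1 in the type II keratin cluster.

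Values are log2 expression values, so that a difference of 1 log2 unit is a 2-fold difference. Medians of single arrays were 6.77 to 6.84 log2 units and the highest values between 14.09 and 14.21. The background of each array was taken as the 95th percentile of 160 chemosensory receptor genes, a class that is mostly silent in skin, and lay between 6.82 and 7.22 log2 units. Where all 3 arrays of the lower group were at or below it, a difference is a bound, and where this held for both groups no difference is given. The summed level of 12 keratinocyte markers, Krt5, Krt14, Trp63 and Cdh1 among them, lay between 15.72 and 15.83 log2 units on all 12 arrays, and all 12 were above background in every group. Such a sum weights its brightest members most. In MT-HGF against WT cells 2 of the 12 were higher and 2 lower, where 17.1% and 23.9% of all genes were. Epcam, an epithelial adhesion gene, was 3.99-fold higher in AG1478-treated MT-HGF, 4.16-fold in MT-HGF and 3.2-fold in RAS cells than in WT cells. A gene was called higher or lower at a limma adjusted p under 0.05.

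Krt1 and Krt10 were lowest in MT-HGF cells, intermediate in RAS cells, and high in WT cells and in AG1478-treated MT-HGF cells. Against WT cells, Krt1 was 15.5-fold lower and Krt10 9.93-fold lower in MT-HGF cells, and 2.54-fold and 3.12-fold lower in RAS cells. In AG1478-treated MT-HGF cells Krt1 was 27.4-fold higher and Krt10 7.54-fold higher than in MT-HGF cells. Krt77 was higher in AG1478-treated cells than in each of the other 3 groups, and Krt2 was not above background on any array.

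Krt1, the type II chain of the spinous filament, had 12.87, 12.91 and 12.75 log2 units in AG1478-treated MT-HGF cells, 7.93, 8.04 and 8.23 in MT-HGF cells, 10.29, 11.02 and 10.73 in RAS cells, and 12.03, 12.01 and 12.04 in WT cells. No 2 groups overlapped, and the order from high to low was AG1478-treated, WT, RAS and MT-HGF. The means were 12.84 ± 0.08, 8.07 ± 0.15, 10.68 ± 0.37 and 12.02 ± 0.016 log2 units in AG1478-treated, MT-HGF, RAS and WT cells (SD, n = 3 each). The MT-HGF arrays were still 0.87 to 1.35 log2 units above their background, so that Krt1 remained measurable at its lowest.

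Krt10, the type I partner of Krt1, had 10.11, 10.44 and 10.15 log2 units in AG1478-treated MT-HGF cells, 7.39, 7.22 and 7.34 in MT-HGF cells, 8.66, 9.29 and 9.01 in RAS cells, and 10.42, 10.71 and 10.76 in WT cells. MT-HGF was lowest and RAS next, with no overlap between them or with the other groups, while the AG1478-treated and WT arrays overlapped. The group means were 10.23 ± 0.18, 7.32 ± 0.088, 8.99 ± 0.31 and 10.63 ± 0.18 log2 units (AG1478-treated, MT-HGF, RAS and WT, SD, n = 3 each). Krt10 lay only 0.31 to 0.46 log2 units above background in MT-HGF cells, where array values understate a fall. Among the RAS arrays, replicate 1 was lowest and replicate 2 highest for both Krt1 and Krt10.

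Krt77 had 8.5, 8.5 and 8.4 log2 units in AG1478-treated MT-HGF cells, against 7.22, 7.26 and 7.03 in MT-HGF cells, 7.28, 7.22 and 6.96 in RAS cells and 7.36, 7.02 and 7.28 in WT cells. The AG1478-treated arrays stood apart, 1.18 to 1.41 log2 units above background, and the other 9 arrays overlapped at 0.13 to 0.35 above it. Krt2 ranged from 6.04 to 6.25 log2 units in AG1478-treated MT-HGF cells, from 6.03 to 6.05 in MT-HGF cells, from 5.93 to 6.13 in RAS cells and from 5.93 to 6.02 in WT cells. These values lay 0.85 to 1.09 log2 units below the background of their arrays, so no order of the groups is given for Krt2.

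**Figure D1:**
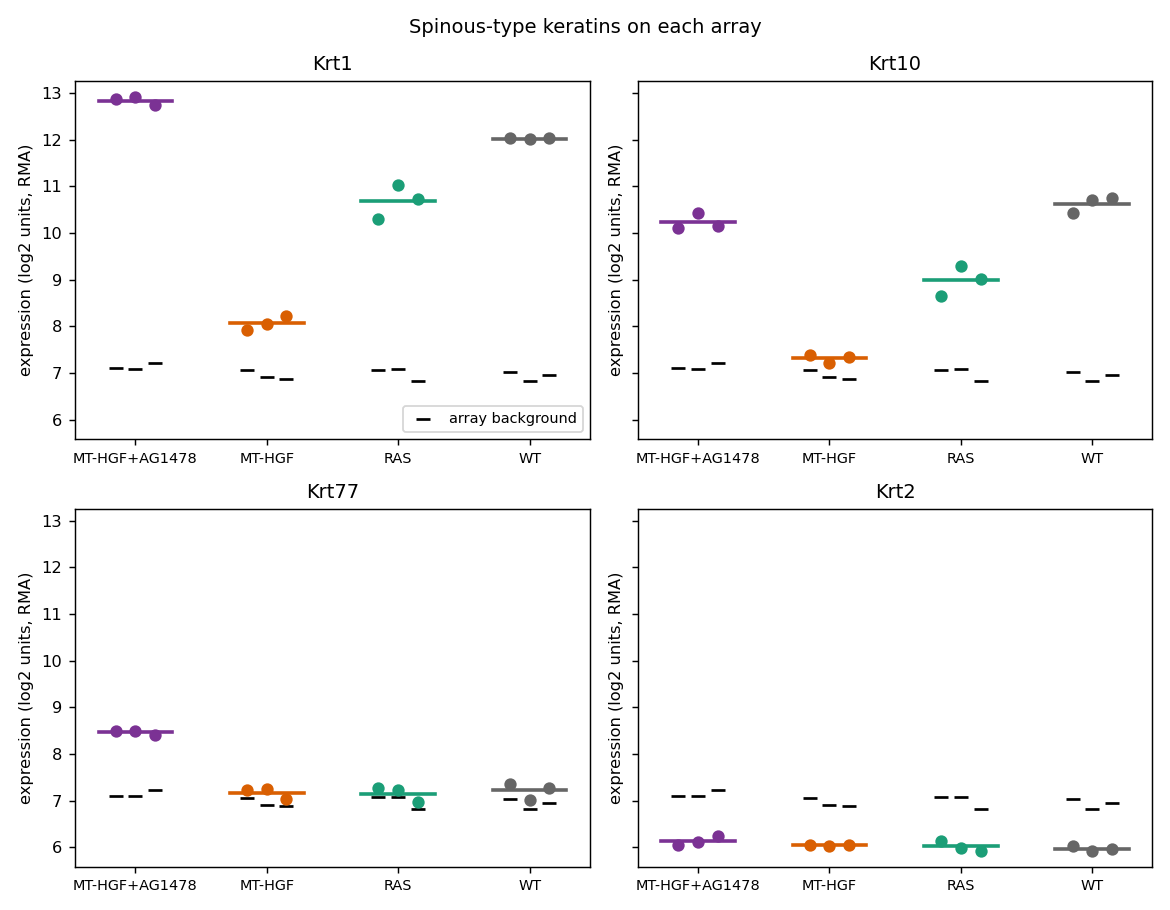
Log2 expression of Krt1, Krt10, Krt2 and Krt77 on each array, with a coloured bar for the group mean and a black dash for the background of that array, in AG1478-treated MT-HGF, MT-HGF, RAS and WT cells. Krt1 averaged 12.84, 8.07, 10.68 and 12.02 log2 units in these groups, Krt77 stood apart in the AG1478-treated arrays, and Krt2 lay below background throughout.

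The bases before the start sites of Krt10 and Krt77 are shown because both genes were higher after AG1478 in MT-HGF cells while their levels in the other groups followed different patterns. The window of Krt1 was not analysed here. Each is the 250 bases before the start in RefSeq for build GRCm38.p6, read 5′ to 3′ along the gene, which is on the minus strand in both cases. The window is chr11:99389365-99389614 for Krt10 and chr15:101869706-101869955 for Krt77. Capitals mark matches to a motif searched.
Krt10: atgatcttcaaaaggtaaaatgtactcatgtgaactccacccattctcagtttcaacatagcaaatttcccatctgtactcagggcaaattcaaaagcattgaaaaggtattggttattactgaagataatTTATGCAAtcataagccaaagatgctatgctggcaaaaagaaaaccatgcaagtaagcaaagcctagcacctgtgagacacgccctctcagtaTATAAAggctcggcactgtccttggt
Krt77: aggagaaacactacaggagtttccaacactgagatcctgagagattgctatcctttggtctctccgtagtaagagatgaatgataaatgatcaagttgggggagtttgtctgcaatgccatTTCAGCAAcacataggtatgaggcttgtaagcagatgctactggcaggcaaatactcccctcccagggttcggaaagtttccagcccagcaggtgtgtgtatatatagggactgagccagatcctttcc

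In these windows 6 motifs were searched on both strands. They were the TATA box with the letters TATAAA, the AP-1 motif with TGANTCA, the C/EBP motif with TTGCNNAA, the AP-2 motif with GCCNNNGGC, the motif of the Notch effector RBPJ with GTGGGAA and the ETS motif with CNGGAAG. Krt10 held TATAAA at 26 to 21 bases before the start, and the C/EBP letters on the opposite strand at 119 to 112 bases. Krt77 held the C/EBP letters on the opposite strand at 129 to 122 bases and no match to the other letters searched. The ETS letters at 97 to 91 bases were the 1 match in the window of Krt2. The windows of Krt77 and Krt2 also hold the letters tatata close to the start, which TATAAA does not match. The absence of TATAAA is therefore not the absence of a TATA box. No matches overlapped. Of 32851 promoter windows of this length, 12.4% held TATAAA, 9.56% the C/EBP letters, 26.6% the ETS letters, 13.7% those of AP-2, 6.75% those of AP-1 and 5.42% those of RBPJ. Of 37 keratin promoters 45.9% held TATAAA and 10.8% the C/EBP letters. A match describes letters and is not evidence that a factor binds there.

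AG1478-treated and untreated MT-HGF cells carry the same transgene, while the inhibitor and the handling of the arrays differ together. Of the 4 keratins 3 were higher and 0 lower in AG1478-treated cells, where 6.57% of all genes tested were called higher and 9.91% lower. Krt1 was higher by 4.78 ± 0.13 log2 units (SE, 3 arrays in each group, 95% interval 4.50 to 5.05, limma adjusted p = 5.2e-13). This was the largest rise of all 15868 genes, and Krt10, with 2.92 ± 0.13 log2 units (95% interval 2.64 to 3.19, limma adjusted p = 3.11e-10), had the 5th largest. Krt77 was higher by 1.30 ± 0.098 log2 units, or 2.46-fold (95% interval 1.09 to 1.51, limma adjusted p = 1.12e-07). Krt1 held the first place among the rises in all 23 settings and left-out arrays tried, the main fit included. Some of these, such as leaving out a RAS or WT array, could not change this difference.

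MT-HGF and WT cells were compared to ask what the transgene changes. Of the 4 keratins 2 were lower and 0 higher in MT-HGF cells, where 23.9% of all genes were called lower. Krt1 fell by 3.96 ± 0.13 log2 units (SE, 3 arrays in each group, 95% interval -4.23 to -3.68, limma adjusted p = 4.62e-13), which was the 3rd largest fall. Krt10 fell by 3.31 ± 0.13 log2 units (95% interval -3.59 to -3.03, limma adjusted p = 4.22e-12), the 6th largest. For Krt77 the difference of -0.05 log2 units did not pass the test, and its 95% interval from -0.26 to 0.16 bounds the size of a difference on this scale, close to background.

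RAS cells showed smaller falls than MT-HGF cells. Of the 4 keratins 2 were lower and 0 higher in RAS cells than in WT cells, where 19.9% of all genes were called lower. Krt1 fell by 1.34 ± 0.13 log2 units (SE, 3 arrays in each group, 95% interval -1.62 to -1.07, limma adjusted p = 4.08e-07) and Krt10 by 1.64 ± 0.13 log2 units (95% interval -1.92 to -1.36, limma adjusted p = 3.9e-08). Krt77 differed by -0.07 log2 units, with a 95% interval from -0.28 to 0.14 and no call.

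The direct comparison of MT-HGF with RAS cells gave 2 keratins lower and 0 higher in MT-HGF cells, with 12.6% of all genes called lower. Krt1 was 6.12-fold lower in MT-HGF than in RAS cells (-2.61 ± 0.13 log2 units, SE, 3 arrays in each group, limma adjusted p = 1.29e-09), the largest fall of all genes tested. It was the largest fall in 21 of 23 settings, and the second largest without MT-HGF replicate 1 and without RAS replicate 2. Some settings, such as leaving out a WT or AG1478-treated array, could not change this difference. Krt10 was 3.18-fold lower (-1.67 ± 0.13 log2 units, limma adjusted p = 1.36e-07). Krt77 differed by 0.02 log2 units, with a 95% interval from -0.19 to 0.23 and no call.

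AG1478-treated MT-HGF cells were also set against WT and RAS cells, which shows where the treated level ended relative to each. Against WT cells 2 keratins were higher and 1 lower, where 16.8% of all genes were called higher and 26.2% lower. Krt1 was 1.76-fold higher (0.82 ± 0.13 log2 units, SE, 3 arrays in each group, limma adjusted p = 7.22e-05) and Krt77 2.37-fold higher (1.25 ± 0.098 log2 units, limma adjusted p = 2.56e-08). Krt10 was 1.32-fold lower (-0.40 ± 0.13 log2 units, 95% interval -0.68 to -0.12, limma adjusted p = 0.0222). That Krt10 call was lost without AG1478-treated replicate 1 (-0.34, limma adjusted p = 0.0876) or 3 (-0.35, 0.0741), without WT replicate 2 (-0.36, 0.0749) or 3 (-0.33, 0.0963), and with all kept transcript clusters in the fit (-0.40, 0.0584). Against RAS cells 3 keratins were higher and 0 lower, where 16.3% of all genes were called higher and 20.4% lower, with Krt1 at 2.16 ± 0.13, Krt10 at 1.25 ± 0.13 and Krt77 at 1.32 ± 0.098 log2 units (limma adjusted p = 2.42e-09, 1.69e-06 and 2.86e-08). These 6 comparisons share arrays, so their results are not independent of one another.

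**Figure D2:**
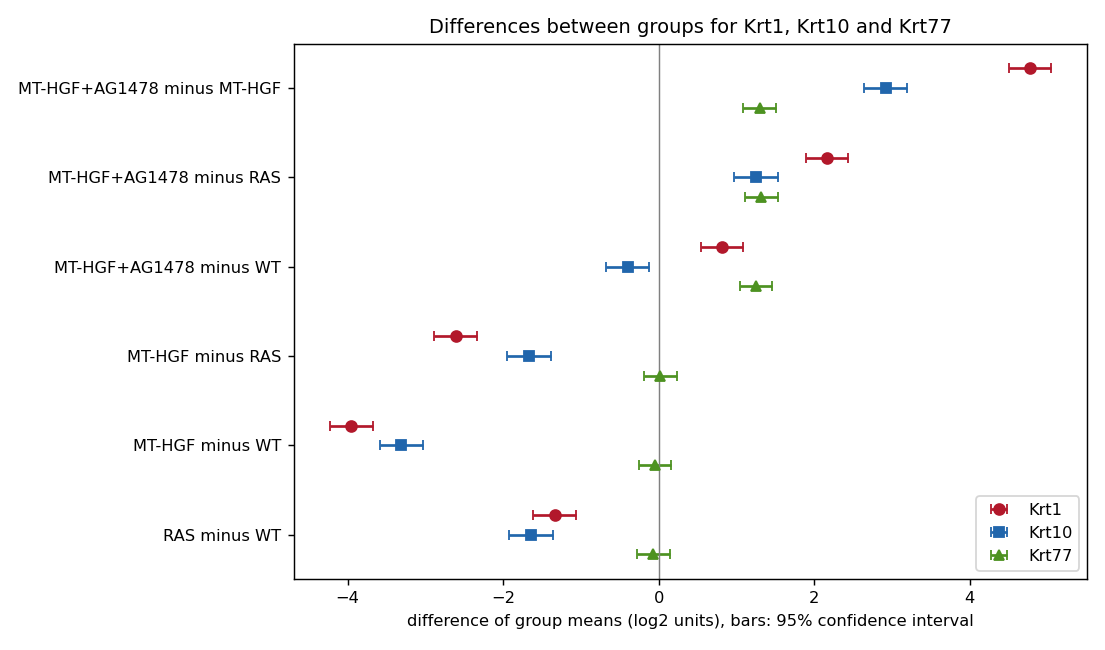
Difference of group means in log2 units of Krt1, Krt10 and Krt77 in each of the 6 comparisons, with the 95% interval of limma's fit as a bar. Krt1 spans from -3.96 in MT-HGF minus WT to 4.78 in AG1478-treated minus untreated MT-HGF, while Krt77 lies near 0 in the 3 comparisons without AG1478-treated arrays.

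Krt1 and Krt10 changed in the same direction in 5 of the 6 comparisons but not by the same amount. The change of Krt1 minus that of Krt10 was 1.86 log2 units for AG1478-treated against untreated MT-HGF cells, -0.65 for MT-HGF against WT cells, and 0.30 for RAS against WT cells. It was 1.22 for AG1478-treated MT-HGF against WT cells, where the 2 genes changed in opposite directions. It was -0.95 for MT-HGF against RAS cells and 0.92 for AG1478-treated MT-HGF against RAS cells. In each comparison the 3 arrays of one group did not overlap with those of the other in the difference between the genes, and each two-sided exact permutation test over 3 against 3 arrays gave p = 0.1, the smallest p it can give, so that none could pass 0.05 (Benjamini-Hochberg adjusted over 6 comparisons, 0.1). Whether the nearness of Krt10 to background in MT-HGF cells lowered its measured change was not tested. Over the 12 arrays the Pearson correlation of Krt1 with Krt10 was 0.958, given as a description, since the arrays fall into groups.

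Keratins that lie beside the members on the chromosome were for the most part not above background or not called. By the order of genes in RefSeq (assembly GRCm38.p6), the type II cluster on chromosome 15 runs Krt72, Krt73, Krt2, Krt1, Krt77, Krt76 and Krt4. Krt72, Krt73 and Krt76 were not above background in any group, as was Krt2. Krt4, a keratin of internal stratified epithelia, was not above background in WT cells and was higher by at least 0.48 log2 units in AG1478-treated MT-HGF cells and by at least 0.35 in RAS cells. It was also called higher in MT-HGF than in WT cells, with a mean of 6.86 log2 units and 2 MT-HGF arrays above background. Next to Krt10 on chromosome 11, Krt27, a keratin of the hair root sheath, was not above background in any group, and Krt12, a keratin of the cornea, had group means of 7.38, 7.33, 7.37 and 7.29 log2 units in AG1478-treated, MT-HGF, RAS and WT cells and was not called in any comparison. Krt23, 3 genes away from Krt10, was not above background in WT cells. It was higher by at least 3.23 log2 units in MT-HGF and at least 3.16 in RAS cells than in WT cells, and it fell by 1.46 log2 units in AG1478-treated against untreated MT-HGF cells. Krt26, Krt28 and Krt20 were not analysed here.

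**Figure D3:**
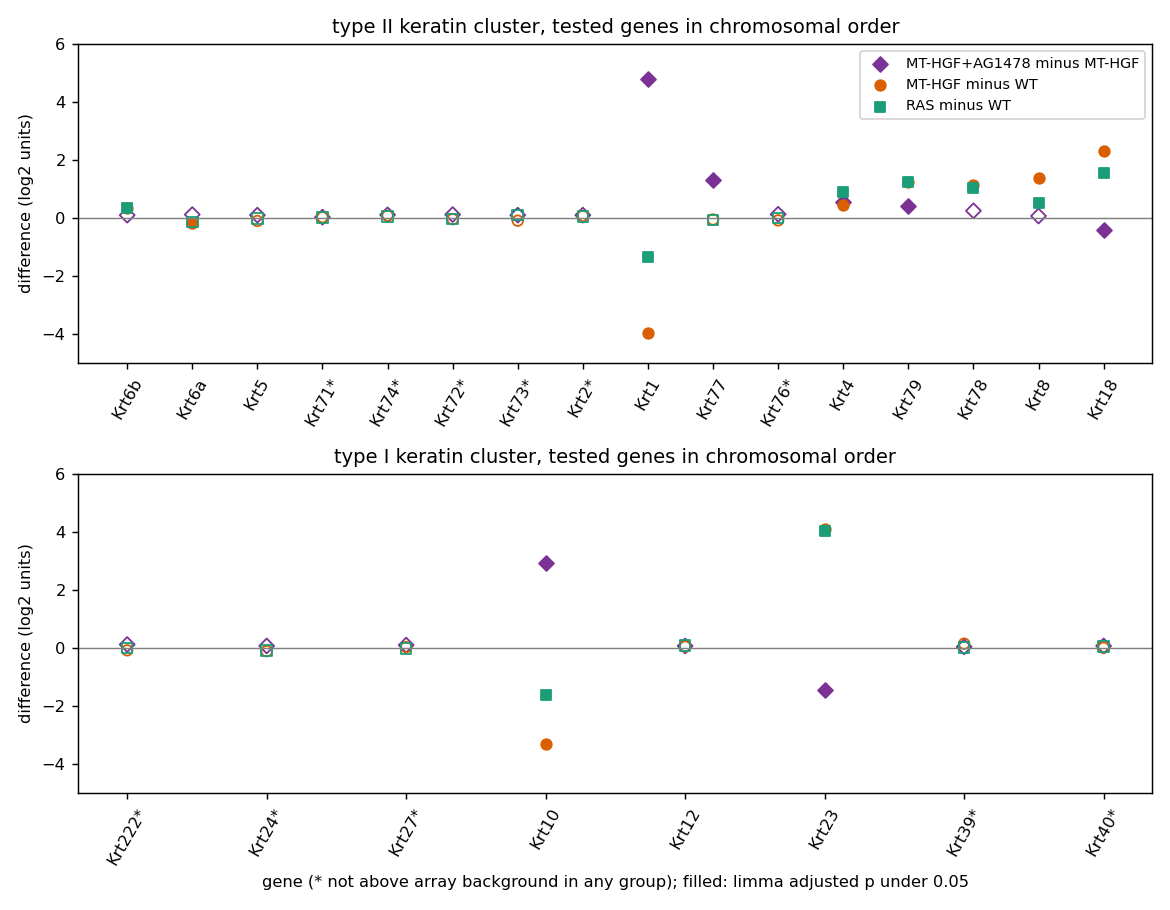
Log2 differences of the tested keratins in their order along the type II cluster and the type I cluster, with filled symbols for genes called. Krt1 and Krt10 fell in MT-HGF against WT cells (-3.96 and -3.31) beside neighbours that were for the most part not above background or not called. Krt4 and Krt23, both called, lay on the opposite side of 0.

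Krt5 and Krt14, the basal pair of the epidermis, had group means between 13.38 and 13.48 and between 12.88 and 13.01 log2 units and were called in none of the 6 comparisons. They lie near the upper end of the scale, where array values can understate differences. Krt15, a basal and hair follicle keratin, was higher in AG1478-treated than in untreated MT-HGF cells by 0.80 log2 units (limma adjusted p = 2.01e-06), and like Krt77 was not called in MT-HGF or RAS against WT cells (-0.10 and -0.03). Its means of 7.03, 7.09 and 7.12 log2 units in MT-HGF, RAS and WT cells were close to background. Of 43 keratins tested outside the 4 members, 6 (14%) were higher and 4 (9.3%) lower in AG1478-treated than in untreated MT-HGF cells. Of all genes, 6.57% were called higher and 9.91% lower in that comparison. In MT-HGF against WT cells 12 keratins (27.9%) were higher and 3 (6.98%) lower, where 17.1% and 23.9% of all genes were. In RAS against WT cells 11 keratins (25.6%) were higher and 1 (2.33%) lower, where 12.6% and 19.9% of all genes were. The type II keratins Krt79, Krt78 and Krt80 were each higher in MT-HGF and in RAS cells than in WT cells, for example Krt79 by 1.24 and 1.25 log2 units.

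A list of 7 keratins held Krt6a, Krt6b, Krt16 and Krt17, which mark wounded and hyperproliferative epidermis, the hair follicle keratins Krt75 and Krt79, and Krt80. Of the 7, 4 (57.1%) were higher and 1 (14.3%) lower in MT-HGF than in WT cells, where 17.1% and 23.9% of all genes were. In RAS against WT cells 4 (57.1%) were higher and 0 lower, where 12.6% and 19.9% of all genes were. The hair follicle keratin Krt75 rose most, by 2.00 log2 units in MT-HGF and 2.98 in RAS cells, and Krt6b rose by 0.36 and 0.35. Krt16 and Krt17 were not called in either comparison, and Krt6a fell by 0.17 in MT-HGF cells, to 12.71 against 12.88 in WT cells. The simple epithelial keratins, which normally line single-layered epithelia and ducts, were higher in MT-HGF than in WT cells for 5 of 5 measured. In RAS cells 4 of 5 were higher, where 17.1% of all genes were called higher in MT-HGF and 12.6% in RAS cells. Krt18 rose by 2.32 log2 units in MT-HGF and 1.54 in RAS cells, and Krt8 by 1.37 and 0.51. In AG1478-treated against untreated MT-HGF cells 0 of 5 were higher and 3 lower, where 6.57% and 9.91% of all genes were. Among the 3 was Krt18, which fell by 0.40 log2 units. Krt6a and Krt6b, and Krt14, Krt16, Krt17 and Krt42, are close in sequence, so that their probes can share signal.

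Of 26 spinous genes measured outside the 4 members, 14 were higher and 3 lower in MT-HGF than in WT cells, where 17.1% and 23.9% of all genes were. In RAS against WT cells 13 were higher and 4 lower, where 12.6% and 19.9% of all genes were. In AG1478-treated against untreated MT-HGF cells 8 were higher and 5 lower, where 6.57% and 9.91% of all genes were. The median differences of the 26 genes were 0.45, 0.18 and 0.11 log2 units, against -0.03, -0.02 and 0.02 over all genes. The list was chosen with earlier results of these data known.

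Them5, an acyl-CoA thioesterase gene, was the spinous gene outside the 4 members with the largest rise in AG1478-treated against untreated MT-HGF cells. It had 12.09, 12.14 and 12.04 log2 units in AG1478-treated MT-HGF cells, 7.90, 8.31 and 8.41 in MT-HGF cells, 8.35, 8.97 and 8.68 in RAS cells, and 9.61, 10.31 and 10.22 in WT cells. The AG1478-treated arrays were highest, WT next, and RAS and MT-HGF overlapped. It was higher by 3.89 log2 units in AG1478-treated than in untreated MT-HGF cells, and it fell by 1.84 in MT-HGF and by 1.38 in RAS cells against WT cells. Calml3, a calmodulin-like protein gene of epithelia, was also higher in AG1478-treated than in untreated MT-HGF cells, by 1.38 log2 units, but did not pass the test in MT-HGF against WT cells (-0.12). Calml3 averaged 7.05 log2 units in MT-HGF and 7.17 in WT cells, close to background.

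Among desmosome and gap junction genes, Dsc2, a desmocollin of the desmosome, rose by 2.73 log2 units in MT-HGF and 2.54 in RAS cells against WT cells, and fell by 0.90 in AG1478-treated against untreated MT-HGF cells. The connexin gene Gjb2 rose by 1.43 and 1.42 and fell by 1.20 in the same comparisons. Gjb6, another connexin, was higher by at least 2.25 log2 units in MT-HGF and at least 2.5 in RAS cells than in WT cells, where it was not above background, and fell by 0.97 after AG1478. Ivl, the cornified envelope precursor involucrin, rose by 0.74 in MT-HGF and 0.87 in RAS cells and fell by 0.64 in AG1478-treated against untreated MT-HGF cells. Smaller falls in MT-HGF against WT cells were those of Dsc3, another desmocollin, by 0.20 and of Dsp, the desmosomal plaque protein desmoplakin, by 0.19. Tgm1, the transglutaminase that cross-links the envelope, rose by 1.25 and 1.06 and was not called after AG1478 (-0.17).

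The granular and cornified genes follow the spinous program in normal epidermis. Of 34 measured, 30 were higher and 0 lower in MT-HGF than in WT cells, where 17.1% and 23.9% of all genes were. In RAS against WT cells 31 were higher and 1 lower, where 12.6% and 19.9% of all genes were. The medians of the 34 were 1.08 and 1.48 log2 units. In AG1478-treated MT-HGF cells, where Krt1 was above the WT level, 30 were higher and 0 lower than in WT cells, with a median of 1.14. Of all genes, 16.8% were higher and 26.2% lower in that comparison. Lor, which encodes the envelope protein loricrin, rose by 1.5 in MT-HGF, 1.90 in RAS and 1.96 in AG1478-treated MT-HGF cells against WT cells. Between AG1478-treated and untreated MT-HGF cells, 10 of the 34 (29.4%) were higher and 8 (23.5%) lower, where 6.57% and 9.91% of all genes were. Among the 10 were Tchh at 1.54 and Rptn at 1.04 log2 units, and among the 8 the lipoxygenase gene Alox12b at -0.89. Members of the Lce1 family in this list are close in sequence, and the counts include Flg2, Lce1a2 and Lce1f, which were called in MT-HGF against WT cells although not above background in either group.

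**Figure D4:**
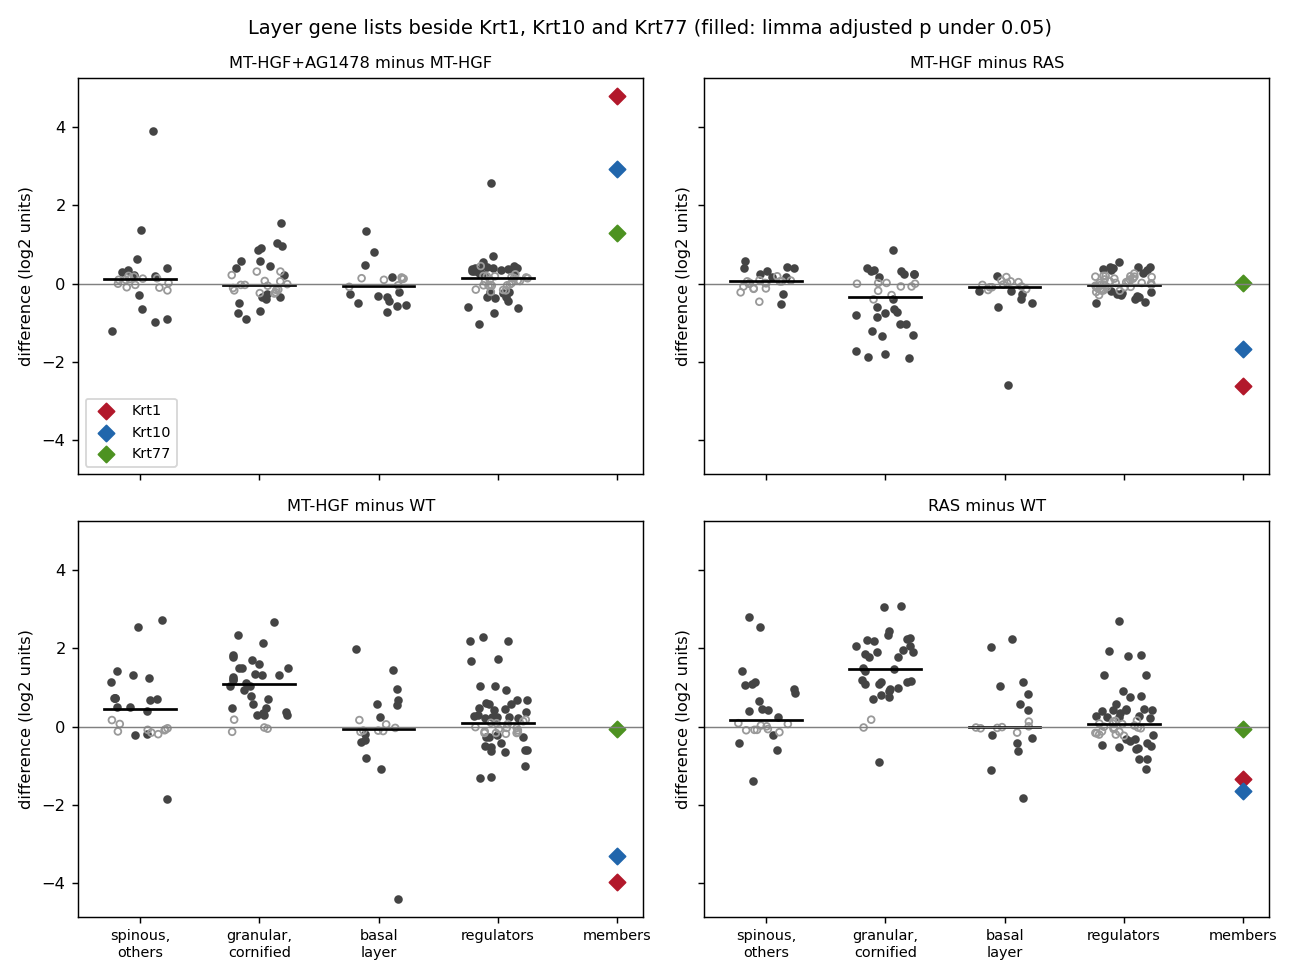
Log2 differences of the genes of the layer lists in the comparisons, 1 point per gene. In MT-HGF against WT cells the median was 0.45 log2 units for the 26 spinous genes outside the members and 1.08 for the 34 granular and cornified genes, while Krt1 and Krt10 lay at -3.96 and -3.31.

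Of 20 basal layer genes measured, 7 (35%) were higher and 6 (30%) lower in MT-HGF than in WT cells, where 17.1% and 23.9% of all genes were. In AG1478-treated against untreated MT-HGF cells 4 (20%) were higher and 9 (45%) lower, where 6.57% and 9.91% of all genes were. The integrin subunit genes Itga2, Itga3 and Itga6, which anchor basal cells to the basement membrane, rose by 1.98, 0.97 and 0.69 log2 units in MT-HGF cells and fell by 0.73, 0.56 and 0.54 after AG1478. Other anchoring genes did not all rise in MT-HGF against WT cells. The cytolinker gene Dst fell by 0.79 and the collagen gene Col17a1 by 0.18, while the integrin subunit gene Itgb4 averaged 11.69 against 11.63 log2 units. Igfbp2, an insulin-like growth factor binding protein gene, fell by 4.39 in MT-HGF against WT cells and was higher by 1.35 in AG1478-treated than in untreated MT-HGF cells. Among 17 partners of keratin filaments and genes of their turnover, 3 (17.6%) were higher and 5 (29.4%) lower in MT-HGF than in WT cells. Of all genes, 17.1% and 23.9% were. After AG1478, 4 of the 17 (23.5%) were higher and 1 (5.88%) lower, where 6.57% and 9.91% of all genes were. Eppk1, which encodes the cytolinker epiplakin, fell by 1.06 in MT-HGF cells and rose by 0.47 after AG1478, and Ppl, the cytolinker periplakin, rose by 1.49 and did not pass the test (-0.03).

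Regulators of the basal to spinous switch were measured as a list of 55 genes. Of these, 25 (45.5%) were higher and 14 (25.5%) lower in MT-HGF than in WT cells, where 17.1% and 23.9% of all genes were. In RAS against WT cells 22 (40%) were higher and 13 (23.6%) lower, where 12.6% and 19.9% of all genes were. In AG1478-treated against untreated MT-HGF cells 20 (36.4%) were higher and 11 (20%) lower, where 6.57% and 9.91% of all genes were. The list contains activators and repressors, and 5 of its genes had no call in any comparison. Their medians were 0.10, 0.07 and 0.15 log2 units, against -0.03, -0.02 and 0.02 over all genes.

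Pou2f3, a POU transcription factor of suprabasal keratinocytes, had 8.93, 9.04 and 9.28 log2 units in AG1478-treated MT-HGF cells, 6.5, 6.52 and 6.47 in MT-HGF cells, 6.75, 6.77 and 6.61 in RAS cells, and 7.77, 7.87 and 7.73 in WT cells. It was above background only in the AG1478-treated and WT groups, the groups with the most Krt1. It was higher in AG1478-treated than in untreated MT-HGF cells by at least 2.13 log2 units, and higher in AG1478-treated than in WT cells by 1.29. Pou3f1, another POU factor of keratinocytes, was higher by 0.71 after AG1478 and fell by 0.65 in MT-HGF and by 0.47 in RAS cells against WT cells.

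The Notch pathway, which drives keratinocytes out of the basal layer and induces Krt1 and Krt10, showed changes in both directions. The receptor gene Notch1 had 11.13, 11.11 and 11.16 log2 units in AG1478-treated MT-HGF cells, 10.92, 10.74 and 10.78 in MT-HGF cells, 10.99, 10.99 and 11 in RAS cells, and 11.83, 11.78 and 11.86 in WT cells. It was highest in WT cells, and it rose in AG1478-treated against untreated MT-HGF cells by 0.32. The receptor gene Notch3, a suprabasal target of Notch signalling, was higher in MT-HGF than in WT cells by 0.69 and rose after AG1478 by 0.31. Of the ligands, Jag1 fell by 1.30 in MT-HGF and by 0.83 in RAS cells against WT cells and did not pass the test after AG1478 (0.07), while Dll1 fell by 0.63 in MT-HGF cells and rose by 0.39 after AG1478. The target gene Hes1, a transcriptional repressor, was higher by 0.24 in MT-HGF and 0.27 in RAS cells.

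Of the C/EBP factors, which promote early keratinocyte differentiation, Cebpa was higher by 0.60 log2 units in MT-HGF and 0.42 in RAS cells than in WT cells, and Cebpb by 0.49 and 0.43. After AG1478 neither passed the test in MT-HGF cells (0.45 and 0.08). Against WT cells, AG1478-treated MT-HGF cells were higher in Cebpa by 1.05 and in Cebpb by 0.57. Trp63, the master factor of stratified epithelia, was not called in MT-HGF against WT cells (-0.03) or after AG1478 (0.16). It was called in RAS against WT cells (-0.20, limma adjusted p = 0.0206) and in AG1478-treated MT-HGF against RAS cells (0.33, 0.000518). Tfap2a, an AP-2 factor, rose by 0.22 in MT-HGF cells, and Klf4, a zinc finger factor of the upper layers, rose by 0.25 after AG1478.

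AP-1 proteins act downstream of growth factor signalling. Fos, which encodes a component of AP-1, had 7.61, 7.66 and 7.67 log2 units in AG1478-treated MT-HGF cells, 8.66, 8.73 and 8.68 in MT-HGF cells, 8.29, 8.23 and 8.5 in RAS cells, and 7, 7.04 and 7.01 in WT cells. Its level was highest where Krt1 was lowest, although in AG1478-treated cells both Fos and Krt1 were above their WT level. It rose by 1.67 in MT-HGF and 1.32 in RAS cells and fell by 1.04 after AG1478, and Fosl1 rose by 0.69 and 0.79 and fell by 0.60. Jun fell by 0.42 in MT-HGF cells and rose by 0.39 after AG1478. Prkch, the protein kinase C isoform of suprabasal cells, rose by 0.93 in MT-HGF and 0.75 in RAS cells and fell by 0.61 after AG1478.

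Other regulators act later in differentiation. Prdm1, which encodes the repressor Blimp1, was higher by 2.29 log2 units in MT-HGF and 2.69 in RAS cells than in WT cells and fell by 0.45 after AG1478. Hopx, a homeodomain-only protein gene, rose by 2.18 and 1.92 and fell by 0.75, and Grhl3, a grainyhead factor of the barrier, rose by 1.03 and 1.31 and fell by 0.35. Ehf, an epithelial ETS factor, rose by 1.72 and 1.80 and did not pass the test after AG1478 (-0.03). Vdr, the vitamin D receptor gene, fell by 0.50 in MT-HGF against WT cells and was higher by 0.44 after AG1478.

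Among all genes whose 4 group means spanned at least 1 log2 unit, 984 in number, the 10 whose values over the 12 arrays were most like the mean of Krt1 and Krt10 had a Pearson correlation between 0.848 and 0.955. They were Itgb8, Dlx5, Chst15, Cyp1b1, Nebl, Vegfd, Trp53inp1, Plagl1, Wnt3 and Denn2b. Itgb8, an integrin subunit gene, had group means of 7.75, 6.29, 6.75 and 7.64 log2 units in AG1478-treated, MT-HGF, RAS and WT cells, and was not above background in the MT-HGF and RAS groups. Dlx5, a homeobox gene, had 8.20, 7.14, 7.31 and 8.16. Neither passed the test in AG1478-treated MT-HGF against WT cells (0.11 and 0.04), a comparison in which Krt1 was higher.

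The 5 genes with the most opposite pattern were Cth (-0.973), Etv5 (-0.955), Aig1 (-0.932), Ereg (-0.929) and Ptpn22 (-0.908). Ptpn22 was above background on 1 of the 12 arrays, so that its place rests on values below background. Cth, an enzyme of cysteine synthesis, had group means of 8.21, 9.94, 8.85 and 8.54 log2 units in AG1478-treated, MT-HGF, RAS and WT cells. Ereg, which encodes the EGFR ligand epiregulin, was higher by 1.71 in MT-HGF and 1.27 in RAS cells than in WT cells and fell by 1.66 in AG1478-treated against untreated MT-HGF cells. Nebl and Etv5 each had 2 transcript clusters, whose correlations were 0.702 and 0.865 for Nebl and -0.927 and -0.955 for Etv5. These correlations describe 12 arrays that form 4 groups, and carry no test.

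**Figure D5:**
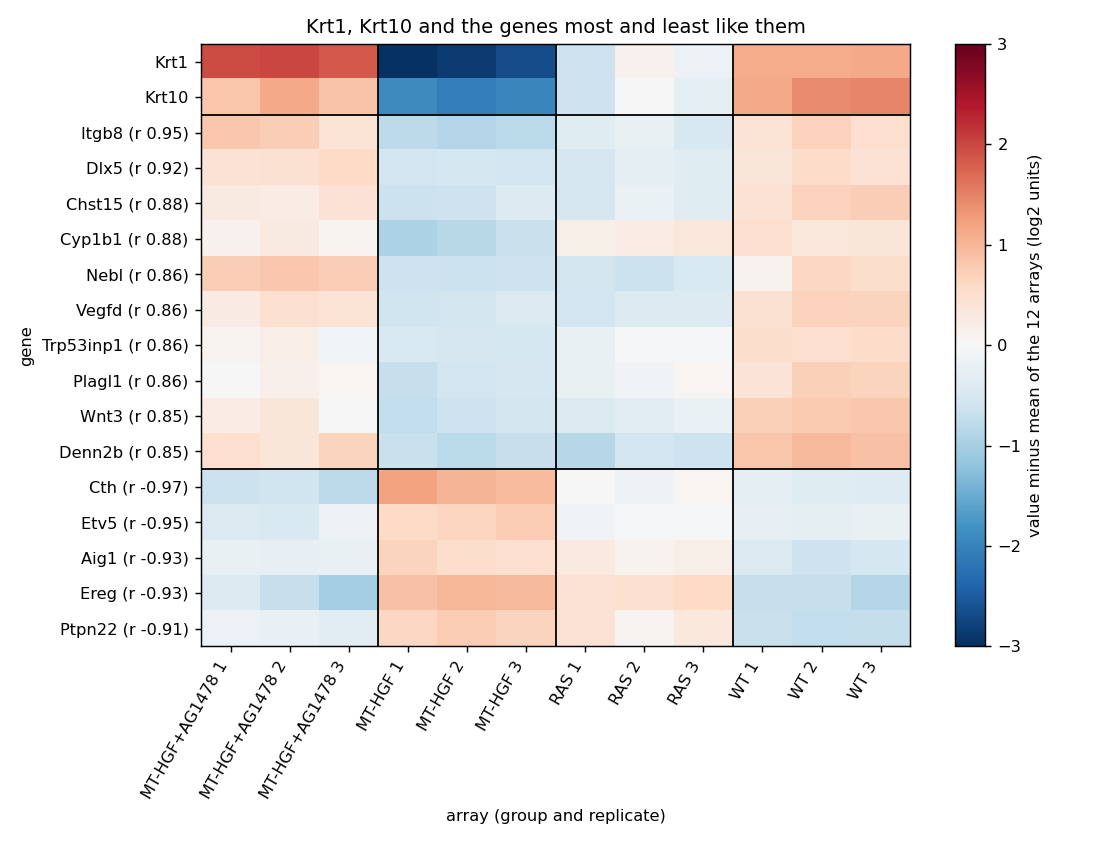
Colour map of the value on each array minus the gene's mean over the 12 arrays, in log2 units, for Krt1, Krt10 and the 10 genes most like and 5 most unlike their mean (rows), with 1 column per array. The correlations run from 0.848 to 0.955 for the 10 and from -0.973 to -0.908 for the 5.

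Markers of other cell types were checked beside these results. For the counts that follow, 17.1% of all genes were called higher and 23.9% lower in MT-HGF than in WT cells. After AG1478, 6.57% of all genes were called higher and 9.91% lower. The counts include genes called although not above background in either group. Examples are Lum in MT-HGF against WT cells, and Csf1r and Trpv6 after AG1478. The summed level of 14 fibroblast markers was 13.08 to 13.16 log2 units in AG1478-treated MT-HGF, 13.05 to 13.11 in MT-HGF, 12.90 to 12.93 in RAS and 13.39 to 13.47 in WT cells, so that it was highest in WT cells and near the same in both MT-HGF groups. Of these 14, 9 were lower and 4 higher in MT-HGF than in WT cells, and 1 was higher and 1 lower after AG1478. Among the 4, Dcn had group means of 10.11, 10.32, 8.63 and 8.55 log2 units in AG1478-treated, MT-HGF, RAS and WT cells. Among the 9, Thy1 fell most, by 1.16 log2 units. Lum, which is counted among the 4, and Mfap5, matrix genes of dermal fibroblasts, were not above background in any group. The summed level of 10 melanocyte markers was 13.44 to 13.58 log2 units in AG1478-treated MT-HGF, 13.44 to 13.61 in MT-HGF, 13.87 to 14.01 in RAS and 13.78 to 13.92 in WT cells. Of these, 0 were called after AG1478 and 7 were lower and 0 higher in MT-HGF than in WT cells. The leukocyte list of 8 genes summed to 10.57 to 10.83 log2 units in AG1478-treated MT-HGF, 10.67 to 10.79 in MT-HGF, 10.72 to 10.88 in RAS and 10.26 to 10.36 in WT cells, with its defining gene Ptprc not above background in any group. Of the 8, 1 was higher and 3 lower in MT-HGF than in WT cells, and 1, Csf1r, was higher and 0 lower after AG1478. Lyz2, a lysozyme gene of myeloid cells, averaged 5.51, 5.70 and 6.03 log2 units in AG1478-treated MT-HGF, MT-HGF and RAS cells, not above background on any array, and 7.69 in WT cells, above it on all 3, so that it was at least 1.67-fold lower in MT-HGF than in WT cells. Cd68, a lysosomal gene of macrophages that other cells also express, was higher by 1.28 in MT-HGF and 1.29 in RAS cells than in WT cells. The endothelial list of 7 genes summed to 9.48 to 9.62, 9.58 to 9.60, 9.55 to 9.69 and 9.83 to 9.90 log2 units in the groups in that order, with Pecam1 and Cdh5 not above background. The 17 hair follicle and sebaceous markers summed to 12.52 to 12.65, 12.44 to 12.45, 12.05 to 12.11 and 12.04 to 12.12 log2 units. Of these, 4 (23.5%) were higher and 0 lower after AG1478, against 2 (11.8%) higher and 4 (23.5%) lower in MT-HGF than in WT cells. Hoxc13, a homeobox gene of hair differentiation, fell by 2.20 in MT-HGF and by 1.36 in RAS cells against WT cells and was higher by 0.85 after AG1478. The stem cell marker Lgr5 was above background only on the WT arrays and was at least 1.65-fold lower in MT-HGF than in WT cells, while the lipid desaturase gene Scd1 was higher by 1.63. Of 8 markers of sweat glands and simple ducts, among them Krt77 itself, 2 were higher and 2 lower after AG1478 and 5 higher and 1 lower in MT-HGF than in WT cells, and their summed level was 11.55 to 11.76, 11.57 to 11.67, 10.92 to 11.21 and 10.48 to 10.65 log2 units in AG1478-treated, MT-HGF, RAS and WT cells. The part of these cell types in the values of Krt1, Krt10 and Krt77 was not tested.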

How the data were processed

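Labelled total RNA was measured on Affymetrix Mouse Gene 1.0 ST arrays. The deposited log2 values were made with RMA by the authors, per the submitters' processing notes. The sources used here do not state its version, or whether the 12 arrays were processed in 1 run. Groups came from titles and sources, which give 4, where the design text speaks of 3 conditions.

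Of 35511 transcript clusters, 21789 had a single symbol. Clusters over the 30th percentile on 3 or more arrays were kept (25860). For 815 genes with more than 1 kept cluster the brightest was used, which left 15868 genes, all 4 members among them. A group-means model on all 12 arrays was fitted with limma 3.58.1 in R 4.3.3, with default eBayes and Benjamini-Hochberg adjustment over all genes, for 6 comparisons. P-values are two-sided. Bounds set the higher group's mean against the averaged background of the lower group's arrays. The fit was tested on simulated data with independent normal noise on each array. Of 15868 genes, 100 were changed by 1 and 100 by 2 log2 units in 1 group. It recovered 99 to 100% of changes of 1 log2 unit, with 4.31 to 7.87% of its calls false. Far more genes were called on the real arrays, whose deviations can be shared, so this false share does not carry over to them.

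Genes were named from a set drawn by rule. It takes the members, the keratins Krt5, Krt14, Krt15, Krt6a, Krt6b, Krt16, Krt17, Krt8 and Krt18, the 3 called keratins with the largest rise and fall, up to 2 such genes of each other list, regulators called in at least 3 comparisons, 8 regulators whatever their call, the 10 genes most like and 5 least like Krt1 and Krt10, and 3 neighbours on each side. Not all genes of that set are named above, and those left out were chosen with the values known. Ivl, Tgm1, Lor, Krt78, Krt80 and the genes named as not above background or as examples of a marker list were chosen after their values were seen. The members and lists were chosen with earlier results of these data known.

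The labels do not say that equal replicate numbers share an animal, litter or day, so the main fit did not pair arrays. The correlation of deviations between equal numbers ranged from -0.44 to 0.22 in pairs with the AG1478-treated group. Among the MT-HGF, RAS and WT groups it was 0.27 to 0.53 for replicates 1 and 3, and -0.24 to 0.09 for replicate 2. Whether these groups share a batch by replicate number was not tested. Alternatives changed the filter, scaling, gene summary, test, arrays and clusters in the fit.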

Additional observations from a re-analysis of the deposited data

How the results depend on the processing

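The directions and calls of Krt1 and Krt10 held under 10 alternatives and 12 left-out arrays, except for Krt10 in AG1478-treated MT-HGF against WT cells, which lost its call with all kept transcript clusters in the fit (-0.40, limma adjusted p = 0.0584) and without single arrays of either group (-0.50 to -0.33 over the left-out arrays). Krt77 kept its calls in all 3 comparisons with AG1478-treated arrays. Its uncalled differences changed sign. For MT-HGF minus RAS the value was -0.00011 log2 units when arrays were quantile normalized once more, and -0.08 to 0.09 over left-out arrays (-0.0058 without MT-HGF replicate 1, -0.02 without MT-HGF replicate 2 and -0.08 without RAS replicate 3). For MT-HGF minus WT it was -0.15 to 0.02 (0.02 without MT-HGF replicate 3 or WT replicate 1), and for RAS minus WT -0.17 to 0.03 (0.03 without RAS replicate 3). Array weights raised the genes called to 8096 for RAS against WT (5158 without weights) and 3925 for AG1478-treated against untreated MT-HGF (2615 without). The cause was not tested. With the replicate number as a replicate block, no call of Krt1, Krt10 or Krt77 changed. Krt1 in AG1478-treated against untreated MT-HGF cells then had a limma adjusted p = 3.57e-12. Its difference of 4.78 cannot be changed by a block in this balanced design. Krt2, below background, was not followed. Another 84 counts within gene lists, mostly of few genes, moved by over 1.5 times. Signal over background limits Krt2 in every group, and Krt10 and Krt77 where they are near it.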
